A study of Homo sapiens with 4 samples.

Results

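The Arf and Arl family was examined in A375, an established human melanoma cell line. It comprised the small GTPases themselves together with the proteins that switch them on, switch them off or bind them. Its members were the protein-coding genes of the deposited table whose symbols begin with ARF or ARL and a digit, or with ARFGAP, ARFGEF, ARFIP, ARFRP, AGAP, ASAP, ACAP, ADAP, ARAP or AGFG and a digit. This gave 64 genes of the 2864 with values in the table, of which 2258 were protein-coding. By role they were 5 Arf GTPases, 23 Arl (Arf-like) GTPases including ARFRP1, 3 guanine nucleotide exchange factors, 24 GTPase-activating proteins (GAPs) and 9 binding partners. The rule reads symbols and gene type and no expression value. A further 32 rows with similar names were pseudogenes or noncoding RNAs and were left out.

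Arf and Arl proteins are small GTPases that sit on membranes and act as switches in vesicle traffic. An exchange factor loads GTP and the GTPase then binds the membrane and recruits coats, tethers or motors, while a GAP triggers GTP hydrolysis and ends the signal. Arf GTPases work mainly at the Golgi apparatus and at endosomes, whereas the Arl branch is more varied and covers the trans-Golgi network, lysosomes, cilia and tubulin folding. In cancer cells several members, ARF6 and the ASAP proteins among them, are known for roles in adhesion, migration and invasion.

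The 4 cultures are represented by 1 RNA library each, and all carry the same batch label. A375P was the parental line without treatment. A375R was the vemurafenib-resistant strain, derived from the line by stepwise higher doses and held in the drug. A375+DMSO was the line given the solvent DMSO for 48 h, and A375+VEM was the line given 2 μM vemurafenib for 48 h. Vemurafenib inhibits the mutant BRAF kinase of melanoma cells. Whether A375R is a single clone is not given in the sources used here. Since each condition has a single library, differences could not be checked against replicates and carry no p-value. Levels are the deposited TPM (transcript abundance per unit of gene length, set to the same total in each library), which can be compared between genes. The fold of a gene is its ratio of TPM between 2 libraries, with an exact Clopper-Pearson 95% interval from its reads that covers counting error only. A gene was compared where TPM reached 1 in at least 1 of the 2 libraries, and was called higher or lower where the ratio of (TPM + 0.1) passed 1.5-fold.

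The A375P library stood apart from A375+DMSO, the other library without vemurafenib. A375+DMSO differed from A375P past 1.5-fold at 45.7% of the genes compared, whereas A375R differed from A375+DMSO at 20.5%. Folds of A375R against A375P are therefore given beside those against A375+DMSO, and the solvent and the culture cannot be told apart from the library. The genes of the table carried 2054277 reads in A375P, 1963230 in A375R, 1891215 with DMSO and 1932550 with vemurafenib, and since the table covers only the beginning of the alphabet these sums are not library depths. Of 6 markers of melanoma or pigment cells in the table, 5 exceeded a TPM of 4 in every library and ABCB5 stayed under 0.1. Their summed TPM was 745 in A375P, 677 in A375R, 411 with DMSO and 177 with vemurafenib, with AXL the most abundant throughout. The drop with vemurafenib was that of AXL, from a TPM of 358 with DMSO to 92.4, whereas BCL2A1 (4.24 to 8.15), APOE (17.2 to 26.3) and ASAH1 (16.2 to 32.9) were called higher and BCAN was within 1.5-fold (15.4 to 16.9). The 3 markers of B cells summed to at most 0.588, the macrophage marker AIF1 reached at most 0.163 and the 2 markers of red cells at most 0.469, with AHSP at 0 reads in every library. Among the smooth muscle markers, ACTA2 had a TPM of 92.2 in A375P against 28.3 to 40.1 in the other libraries, while ACTG2 stayed under 1. Of the 3 liver markers, ALB (46.4 to 64.5) and APOA1 (7.34 to 10.0) were also highest in A375P. AFP was not, at 1.43 in A375P, 0.317 in A375R, 1.47 with DMSO and 0.494 with vemurafenib. It had 25, 5, 24 and 8 reads, and was called lower in A375R than in each library without vemurafenib. Its level with vemurafenib was called lower than with DMSO. The part of ACTA2, ALB or AXL in the differences below was not tested. In cultured cells measured in bulk, fewer cells of a kind and less RNA per cell cannot be told apart.

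Most members were expressed. TPM reached 1 in at least 1 library for 59 of the 64, and 38 had a TPM of at least 10 in all 4 libraries. The 5 that stayed under 1 were all Arl GTPases, ARL11 and ARL14 among them, with 9 reads or fewer in any library. Summed over the 64 members, TPM was 3509.6 in A375P, 2986 in A375R, 2851 with DMSO and 3113 with vemurafenib. The 5 Arf GTPases alone contributed 1565, 1141, 1022 and 1140.4 of these, so these 5 genes made up most of the difference between A375P and A375R. The 23 Arl GTPases summed to 707 in A375P, 614 in A375R, 617 with DMSO and 569 with vemurafenib. GAPs had a median TPM between 11.1 and 14.2 in each library, with ARFGAP1 the most abundant at a mean of 98.9. Summed TPM of the GAPs was 543 in A375P, 608 in A375R, 556 with DMSO and 616 with vemurafenib.

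**Figure D1:**
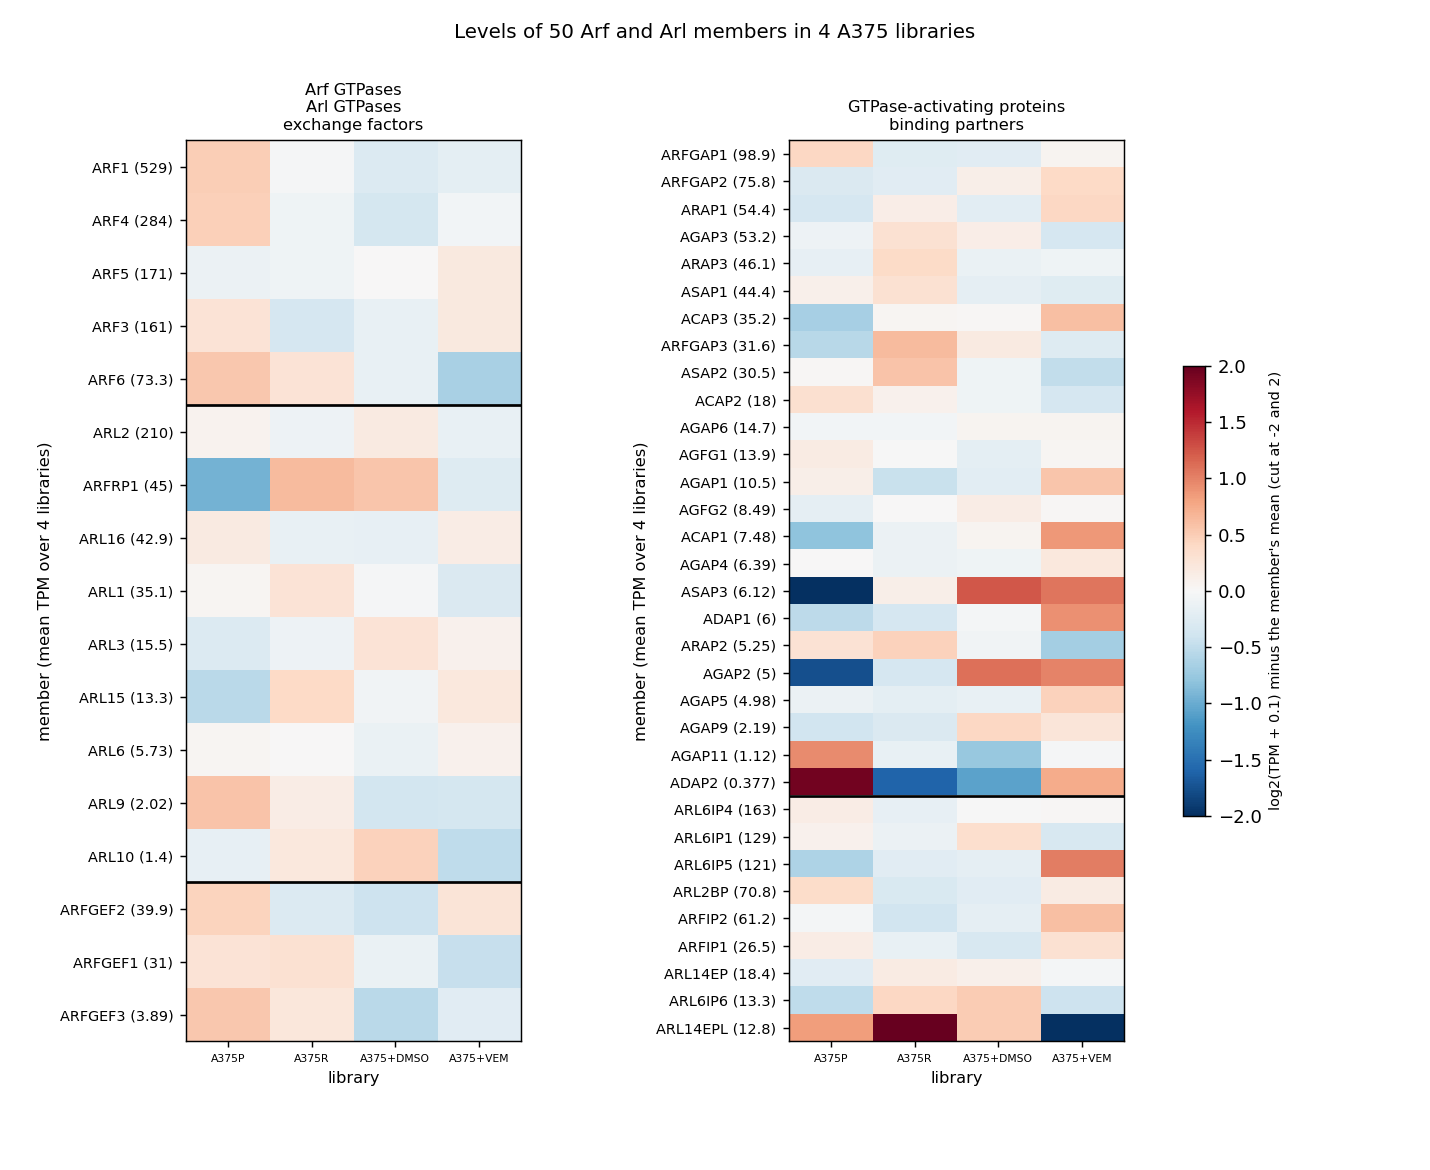
Level of the members shown, each with a TPM of at least 1 in some library, by library (columns) and role (blocks split by black lines). Some members that reached this level are not shown. Colour is log2(TPM + 0.1) minus the member's mean over the 4 libraries, limited to -2 and 2, with the mean TPM in brackets. A375P is the high library for ARF1 and ARF4 and the low library for ASAP3, AGAP2 and ARFRP1, and A375+VEM is the high library for ARL6IP5 and ACAP1.

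In A375R against A375P, the pair for persistent resistance, 20 of 59 members compared passed 1.5-fold, 11 higher and 9 lower. That is 33.9% of the members, beside 44.3% of all genes compared, 26.8% higher and 17.5% lower. Against A375+DMSO only 7 of 57 members passed in A375R, 4 higher and 3 lower, beside 20.5% of all genes (10.5% higher, 9.99% lower). For acute treatment, A375+VEM against A375+DMSO, 17 of 57 members passed, 10 higher and 7 lower, which is 29.8% of them beside 46.2% of all genes (26.5% higher, 19.7% lower). The 2 libraries without vemurafenib, A375+DMSO and A375P, differed at 22 of 59 members, 9 higher and 13 lower, beside 45.7% of all genes (26.8% higher, 18.9% lower). In each comparison the members' share was below that of all genes. The members are all protein-coding, whereas all genes include noncoding ones, and the 2 sets were not matched for level. Whether gene type or level accounts for the lower share was not tested. The median log2 ratio of the members was 0.02 in A375R against A375P, beside 0.10 for all genes compared, and 0.01 in A375+VEM against A375+DMSO, beside 0.11.

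The direction of the split depended on scaling. With the median ratio of all genes set to 1, the split in A375R against A375P was 9 higher to 12 lower, and with TMM factors (edgeR's scaling of library sizes) it was 10 to 12. For A375+VEM against A375+DMSO the splits were 6 to 8 and 6 to 10. Each scaling moves all genes of a comparison together, and shares of all genes under these scalings are not given here. The changed splits are therefore no result about the members alone. The TPM scale put the median gene of A375+VEM against A375+DMSO at 0.11 on the log2 scale and TMM at -0.05. Differences below are best read against a shift of this size.

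**Figure D2:**
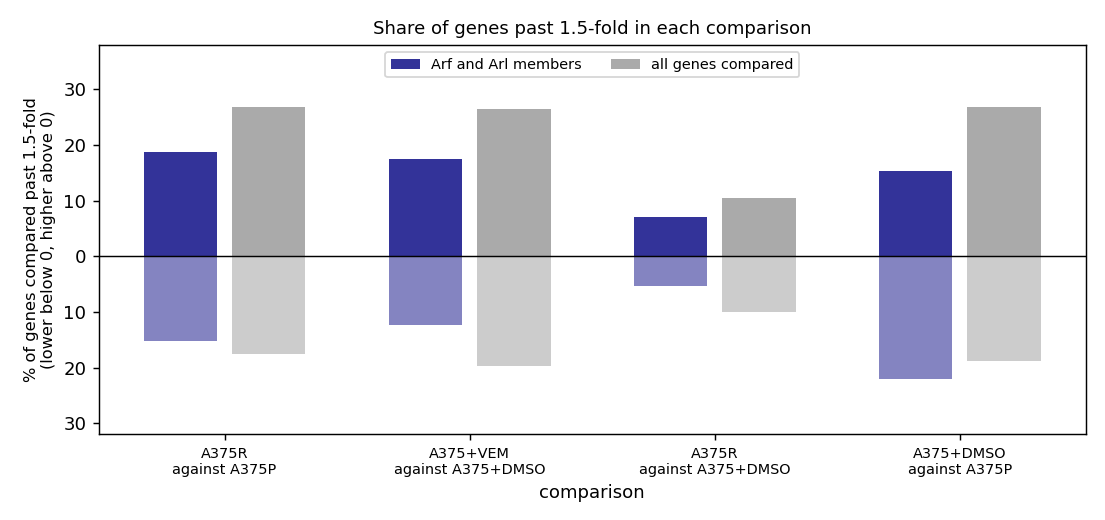
Percentage of genes compared that passed 1.5-fold in each of 4 comparisons, higher above 0 and lower below 0, for the Arf and Arl members (blue) and all genes compared (grey). The members reach 33.9%, 29.8%, 12.3% and 37.3% in total, beside 44.3%, 46.2%, 20.5% and 45.7% for all genes.

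ARF1 and ARF4 were the most abundant members by mean TPM, and the summed TPM of the 5 Arf GTPases was highest in A375P. ARF1, which recruits the COPI coat and clathrin adaptors to the Golgi, had a TPM of 729 in A375P, 509 in A375R, 426 with DMSO and 452 with vemurafenib. ARF4, which acts with ARF1 in the early secretory pathway, followed the same shape, with 387, 263, 219 and 267. The 3 other libraries thus lay together, below A375P. Against A375P, ARF1 was 1.43-fold lower in A375R (95% interval 1.39 to 1.47) and 1.71-fold lower with DMSO (1.66 to 1.76), and only the latter passed 1.5-fold. For ARF4 the corresponding folds were 1.47 (1.41 to 1.54) and 1.77 (1.69 to 1.85). Against A375+DMSO the direction in A375R turned, with ARF1 1.19-fold higher (1.16 to 1.23) and ARF4 1.20-fold higher (1.14 to 1.26), both within 1.5-fold. Under median scaling or TMM both genes also passed in A375R against A375P, with log2 ratios of -0.62 and -0.59 for ARF1 and -0.66 and -0.63 for ARF4.

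ARF3, the closest relative of ARF1, was the Arf GTPase called in A375R against A375P. Its TPM was 191 in A375P, 126 in A375R, 144 with DMSO and 182 with vemurafenib, 1.51-fold lower in A375R than in A375P (1.45 to 1.58). Against A375+DMSO it was 1.14-fold lower in A375R (1.09 to 1.19), within 1.5-fold. ARF5, a Golgi Arf of the same class as ARF4, was the most even, with 157, 159, 170.3 and 195. Its log2 ratio in A375R against A375P was 0.02 and turned to -0.08 under median scaling and -0.06 under TMM, and against A375+DMSO it was -0.10.

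ARF6, the Arf of the plasma membrane and recycling endosomes, descended from 102 in A375P through 84.4 in A375R and 63.0 in A375+DMSO to 44.4 in A375+VEM. It was the sole Arf GTPase with its lowest level in A375+VEM. Against A375+DMSO it was 1.42-fold lower in A375+VEM (1.32 to 1.52), within the threshold on the TPM scale, and past it under median scaling (log2 -0.61) and TMM (-0.65). Against A375P it was lower in A375+VEM by 1.19 on the log2 scale. On the TPM scale no Arf GTPase passed 1.5-fold in A375+VEM against A375+DMSO. ARF3 was 1.27-fold higher (1.22 to 1.32), ARF4 1.22-fold (1.16 to 1.28) and ARF5 1.14-fold (1.07 to 1.23). The log2 ratio of ARF1 was 0.08 and turned to -0.02 under median scaling and -0.07 under TMM. The share of ARF1 in the summed TPM of the 5 genes was 46.6% in A375P, 44.6% in A375R, 41.7% with DMSO and 39.6% with vemurafenib, and that of ARF6 was 6.49%, 7.39%, 6.16% and 3.89%. By reads, which also weigh length, ARF1 took 45.5%, 44.2%, 41.5% and 39.9%.

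**Figure D3:**
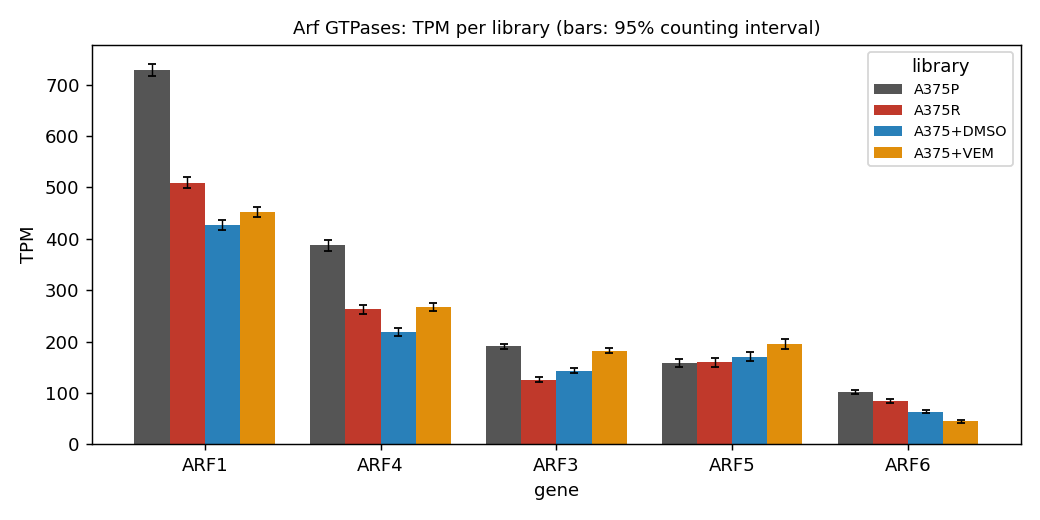
TPM of the 5 Arf GTPases (groups of bars) in the 4 libraries (colours), with 95% counting intervals from the reads. ARF1 and ARF4 stand highest in A375P, at 729 and 387, and ARF6 steps down from 102 in A375P to 44.4 in A375+VEM.

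Of the 18 Arl GTPases compared, 4 were higher and 3 lower in A375R against A375P, 1 was higher in A375R against A375+DMSO, and 1 was higher and 3 lower in A375+VEM against A375+DMSO. These are 38.9%, 5.56% and 22.2% of them, beside 44.3%, 20.5% and 46.2% of all genes. ARFRP1, an Arf-related GTPase that acts upstream of ARL1 at the trans-Golgi network, was low in A375P, the inverse of ARF1 and ARF4. Its TPM was 21.4 in A375P, 63.9 in A375R, 60.3 with DMSO and 34.5 with vemurafenib, from 490, 1322, 1290 and 733 reads. Its level in A375R was 2.99-fold higher than in A375P (2.69 to 3.32) and 1.06-fold higher than in A375+DMSO (0.980 to 1.14). In A375+VEM it was 1.75-fold lower than in A375+DMSO (1.59 to 1.92) and 1.61-fold higher than in A375P (1.44 to 1.81), so the direction for A375+VEM turned with the control. ARL1, its downstream partner that binds golgin tethers, was within 1.5-fold in all 4 comparisons, at 35.9, 41.8, 34.3 and 28.4.

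The 250 bases before the RefSeq start of ARFRP1 (GRCh38.p14, chr20:63707854-63708103, minus strand) are shown because this gene was among the few called in opposite directions in the study's 2 pairs. The bases just after this start were not found in its transcripts in GENCODE, another gene annotation, so the start is uncertain. Positions of genes elsewhere are those of the deposited table. Capitals here and in the promoters below mark matches, on either strand, to 6 short motifs. They are the E-box written CACGTG, the cyclic AMP response element written TGACGTCA, the CCAAT box as its name spells it, the GC box written GGGCGG, the Ets motif written CCGGAAG, and the AP-1 motif written TGANTCA with N for any base.
ARFRP1: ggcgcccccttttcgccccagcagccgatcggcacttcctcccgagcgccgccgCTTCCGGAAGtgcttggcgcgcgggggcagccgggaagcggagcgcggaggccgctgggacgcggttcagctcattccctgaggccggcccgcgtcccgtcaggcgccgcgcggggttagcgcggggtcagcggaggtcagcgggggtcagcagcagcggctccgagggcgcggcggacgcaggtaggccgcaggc
The capitals are 2 overlapping Ets matches, which share bases on opposite strands. RefSeq promoters were matched for 41 of the 64 members, with 62 starts among them. Ets letters occurred in 14.5% of these 62 and in 8.52% of all 35116 promoters of the same length, the GC box in 74.2% and 42.6%, the CCAAT box in 37.1% and 32.0%, the E-box in 6.45% and 6.34%, AP-1 in 1.61% and 6.57% and the cyclic AMP response element in 0 of the 62 and 1.65% of all. A match describes letters only, and factor binding was not measured.

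ARL15, a less studied Arl, had a TPM of 8.82 in A375P, 16.9 in A375R, 12.3 with DMSO and 15.0 with vemurafenib. It was 1.92-fold above A375P in A375R (1.60 to 2.31) and 1.38-fold above A375+DMSO (1.17 to 1.64).

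Arl GTPases of cilia and tubulin showed little difference. ARL2, which works with tubulin folding cofactors, was the most abundant Arl, at 221 in A375P, 194 in A375R, 238 with DMSO and 189 with vemurafenib. It shares its position with the read-through gene ARL2-SNX15 on the same strand, so its reads are uncertain. ARL3, a GTPase of cilia, lay between 12.7 and 18.6. ARL6, which recruits the BBSome coat to cilia, lay between 5.23 and 6.06. All 3 genes were within 1.5-fold in every comparison.

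**Figure D4:**
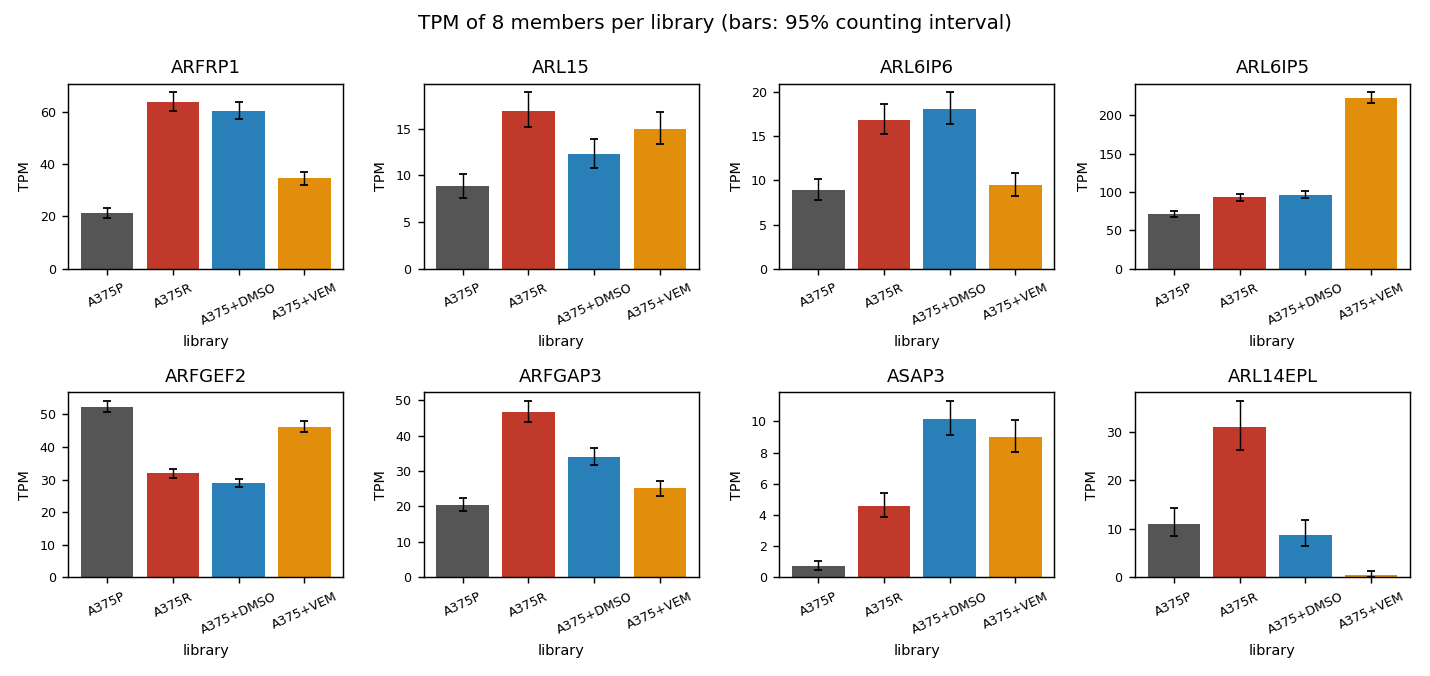
TPM of 8 members in the 4 libraries, each panel with its own axis from 0, bars with 95% counting intervals from the reads. ARFRP1 and ARL6IP6 are high in A375R and A375+DMSO, ARL6IP5 is high in A375+VEM at 223, ASAP3 is low in A375P at 0.703, and ARL14EPL is high in A375R at 31.0.

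The exchange factors ARFGEF1 and ARFGEF2 are large Sec7-domain proteins that activate Arf GTPases at the trans-Golgi network and endosomes. ARFGEF2 had a TPM of 52.4 in A375P, 31.9 in A375R, 28.8 with DMSO and 46.3 with vemurafenib. ARFGEF1 had 36.8, 37.7, 27.6 and 22.0. A375+VEM was thus the second highest library for ARFGEF2 and the lowest for ARFGEF1. ARFGEF2 was 1.64-fold lower in A375R than in A375P (1.56 to 1.73) and 1.11-fold higher than in A375+DMSO (1.04 to 1.18). In A375+VEM it was 1.60-fold higher than in A375+DMSO (1.52 to 1.70), a call lost under median scaling (log2 0.57) and TMM (0.53), and it lay below A375P by 0.18 on the log2 scale. ARFGEF1 was 1.25-fold lower in A375+VEM than in A375+DMSO (1.16 to 1.35). ARFGEF3, a further member of this family, was low at 5.47, 4.37, 2.54 and 3.16. In A375R it was 1.72-fold above A375+DMSO (1.49 to 1.99) and 1.25-fold lower than in A375P (1.11 to 1.41), so that its direction turned with the control.

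The promoter of ARFGEF2 (GRCh38.p14, chr20:48921461-48921710, plus strand) is shown as that of the other member with opposite calls and a single RefSeq start. The bases just after this start were also not found in GENCODE transcripts of the gene, so the start is uncertain. Its capitals are 2 GC boxes.
ARFGEF2: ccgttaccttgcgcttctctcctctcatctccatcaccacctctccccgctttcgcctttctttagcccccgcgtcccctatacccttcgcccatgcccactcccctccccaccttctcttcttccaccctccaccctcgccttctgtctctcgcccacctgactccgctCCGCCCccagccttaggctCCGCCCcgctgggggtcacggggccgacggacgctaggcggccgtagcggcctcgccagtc

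The 24 GAPs differed widely among themselves. In A375R against A375P 5 were higher and 3 lower, which is 33.3% of them beside 44.3% of all genes. In A375+VEM against A375+DMSO 5 of 22 were higher and 1 lower, 27.3% beside 46.2%. The latter split depended on scaling. AGAP5 and ARAP1 lost the higher call under median scaling and TMM, and AGAP3 and ARFGAP3 were lower under TMM. ARFGAP1, ARFGAP2 and ARFGAP3 act on ARF1 at the Golgi and take part in the COPI cycle, and they did not move together. ARFGAP1, the most abundant GAP, had a TPM of 129.9 in A375P, 81.9 in A375R, 83.4 with DMSO and 100.4 with vemurafenib. ARFGAP2 had 61.1, 63.3, 80.7 and 98.0, and ARFGAP3 had 20.4, 46.7, 34.0 and 25.1. A375P was therefore the highest library for ARFGAP1 and the lowest for the 2 others. ARFGAP1 was 1.59-fold lower in A375R than in A375P (1.51 to 1.66) and 1.02-fold lower than in A375+DMSO (0.965 to 1.07). ARFGAP3 in A375R was 2.29-fold above A375P (2.06 to 2.56) and 1.37-fold higher than in A375+DMSO (1.25 to 1.51). ARFGAP2 overlaps another gene on the opposite strand, and strand use in counting is not given in the sources used here.

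ASAP proteins carry BAR and ankyrin domains, with an SH3 domain in ASAP1 and ASAP2 but not in ASAP3, and are known for roles in cell adhesion and migration. ASAP3 had a TPM of 0.703 in A375P, 4.60 in A375R, 10.1 with DMSO and 9.01 with vemurafenib, from 25, 148, 337 and 297 reads. Its level was lowest in A375P and higher in each of the others. Its level in A375R was 6.55-fold higher than in A375P (4.27 to 10.5), but 2.20-fold lower than in A375+DMSO (1.81 to 2.69), and the gap between A375+DMSO and A375P was 14.4-fold (9.62 to 22.6). ASAP1, the most studied of the 3 in invasion, had 47.0, 54.5, 38.9 and 37.1 and was within 1.5-fold in all 4 comparisons. ASAP2 had 29.9, 43.6, 27.6 and 20.9 and was 1.58-fold higher in A375R than in A375+DMSO (1.47 to 1.70) and 1.46-fold higher than in A375P (1.36 to 1.56).

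The promoter of ASAP3 (GRCh38.p14, chr1:23484180-23484429, minus strand) is shown for the GAP with the largest rise from A375P to A375+DMSO. Its capitals are 3 GC boxes.
ASAP3: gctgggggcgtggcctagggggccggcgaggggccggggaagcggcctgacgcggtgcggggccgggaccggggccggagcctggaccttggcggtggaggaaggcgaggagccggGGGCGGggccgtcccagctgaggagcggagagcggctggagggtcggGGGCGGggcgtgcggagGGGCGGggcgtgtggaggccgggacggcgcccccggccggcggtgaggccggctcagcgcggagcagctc

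AGAP2, a GAP that also has a GTPase domain of its own and is known as a nuclear activator of PI3 kinase, was distributed like ASAP3. Its TPM was 1.05 in A375P, 2.99 in A375R, 8.32 with DMSO and 7.65 with vemurafenib. Its level in A375R was 2.84-fold higher than in A375P (2.06 to 3.95) and 2.78-fold lower than in A375+DMSO (2.29 to 3.39). The antisense RNA AGAP2-AS1 overlaps it and was more abundant in every library, at 16.7, 30.5, 25.1 and 26.7, so the reads of this pair cannot be told apart without strand. AGAP1, a partner of the AP-3 adaptor, had 11.0, 7.40, 8.72 and 15.0 and was 1.71-fold higher in A375+VEM than with DMSO (1.57 to 1.87). AGAP3 had 49.0, 64.7, 57.5 and 41.6, within 1.5-fold in all 4 comparisons on the TPM scale. AGAP4, AGAP5, AGAP6, AGAP9 and AGAP11 are related genes on chromosome 10. Whether reads were shared among them was not tested, so their levels are uncertain.

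ACAP and ADAP proteins include GAPs for ARF6, and ACAP1, ACAP3 and ADAP1 stood highest in A375+VEM. ACAP1 had a TPM of 3.91 in A375P, 6.33 in A375R, 7.13 with DMSO and 12.6 with vemurafenib, 1.76-fold higher in A375+VEM than with DMSO (1.43 to 2.18). ADAP1 had 3.81, 4.35, 5.38 and 10.5, 1.95-fold higher in A375+VEM (1.56 to 2.45). Against A375P they were higher in A375+VEM by 3.21-fold (2.50 to 4.16) and 2.75-fold (2.15 to 3.55). ACAP3 had 21.3, 34.6, 34.0 and 50.9, which puts A375+VEM 2.39-fold above A375P (2.19 to 2.62) and just within 1.5-fold of A375+DMSO, with a log2 ratio of 0.58. ACAP2 went the other way, with 22.3, 18.9, 16.8 and 14.1. ADAP2 was low, with 25 reads in A375P, 0 in A375R, 1 with DMSO and 9 with vemurafenib, and 0 reads allow up to 3. It was called lower than in A375P both in A375R and in A375+DMSO.

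ARAP proteins combine an ArfGAP with a RhoGAP domain. ARAP1 had a TPM of 42.0 in A375P, 58.3 in A375R, 46.2 with DMSO and 71.2 with vemurafenib, 1.54-fold higher in A375+VEM than with DMSO (1.46 to 1.63), a call lost under median scaling and TMM. ARAP2 had 6.20, 6.95, 4.77 and 3.10, 1.54-fold lower in A375+VEM (1.27 to 1.87), a call lost with a pseudocount of 1 (log2 -0.50). ARAP3 had 40.9, 59.3, 41.4 and 42.9, highest in A375R and within 1.5-fold throughout. The AGFG genes, whose products carry an ArfGAP domain with FG repeats, were even, at 12.0 to 15.6 for AGFG1 and 7.45 to 9.36 for AGFG2.

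Of the 9 binding partners, 3 were higher and 3 lower in A375+VEM against A375+DMSO, which is 66.7% of them beside 46.2% of all genes (26.5% higher, 19.7% lower). ARFIP1 accounts for 1 of the higher calls and is lost under both other scalings. ARL6IP5, an endoplasmic reticulum protein that regulates a glutamate transporter, had a TPM of 71.1 in A375P, 92.9 in A375R, 96.4 with DMSO and 223 with vemurafenib, from 1296, 1531, 1640 and 3761 reads. A375+VEM was far above the 3 other libraries. The gene was 2.31-fold higher in A375+VEM than with DMSO (2.18 to 2.45) and 3.13-fold higher than in A375P. In A375R it was 1.31-fold higher than in A375P (1.21 to 1.41) and 1.04-fold lower than in A375+DMSO (0.967 to 1.11).

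The promoter of ARL6IP5 (GRCh38.p14, chr3:69084687-69084936, plus strand) is shown for the abundant member with the largest rise in A375+VEM. Its capitals are 2 CCAAT boxes and 1 GC box.
ARL6IP5: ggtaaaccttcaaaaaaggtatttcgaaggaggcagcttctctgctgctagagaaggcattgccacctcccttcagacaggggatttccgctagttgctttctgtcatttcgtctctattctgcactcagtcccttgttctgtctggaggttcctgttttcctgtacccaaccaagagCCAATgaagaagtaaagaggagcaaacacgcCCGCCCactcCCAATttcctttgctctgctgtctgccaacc

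The other ARL6-interacting proteins behaved differently from ARL6IP5. ARL6IP1, which shapes tubules of the endoplasmic reticulum, had 135 in A375P, 117 in A375R, 159.9 with DMSO and 102 with vemurafenib, 1.56-fold lower in A375+VEM than in A375+DMSO (1.48 to 1.65). ARL6IP6 had 8.88, 16.9, 18.1 and 9.45. Its level in A375R was 1.91-fold higher than in A375P (1.61 to 2.26) and 1.92-fold lower in A375+VEM than in A375+DMSO (1.62 to 2.28), with A375R and A375+DMSO 1.07-fold apart (0.930 to 1.24). Its levels thus paired A375P with A375+VEM and A375R with A375+DMSO. ARL6IP4, a nuclear protein linked to splicing, was even at 145 to 181.

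Arfaptins sense membrane curvature with a BAR domain and bind GTP-loaded ARL1 and Arf GTPases. ARFIP2 had a TPM of 57.8 in A375P, 45.3 in A375R, 52.5 with DMSO and 89.4 with vemurafenib. It was 1.70-fold higher in A375+VEM than with DMSO (1.60 to 1.81) and 1.55-fold higher than in A375P (1.46 to 1.64). ARFIP1 had 29.0, 23.7, 20.9 and 32.5, 1.55-fold higher in A375+VEM than with DMSO (1.39 to 1.73). Both arfaptins were thus highest in A375+VEM. ARL2BP, an effector of ARL2 and ARL3, had 89.7, 56.6, 59.5 and 77.5 and was 1.58-fold lower in A375R than in A375P (1.46 to 1.72) but 1.05-fold lower than in A375+DMSO (0.960 to 1.15).

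ARL14EPL, named for its likeness to an ARL14 effector, had the widest range of any binding partner. Its TPM was 11.1 in A375P, 31.0 in A375R, 8.77 with DMSO and 0.392 with vemurafenib. These levels rest on 61, 154, 45 and 2 reads over a short counted length of 642 bases. In RefSeq GRCh38.p14 the pseudogene RPS25P6 overlaps this gene. Its level in A375R was 2.79-fold higher than in A375P (2.06 to 3.82) and 3.53-fold higher than in A375+DMSO (2.52 to 5.04), and 22.3-fold lower in A375+VEM than in A375+DMSO (5.84 to 190.1). ARL14EP, the effector itself, was even at 15.7 to 20.5, and ARL14 had 2 reads in A375R and 0 elsewhere.

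Both libraries without vemurafenib can serve as control at once. In A375R 2 of 57 members were higher past 1.5-fold than in A375P and in A375+DMSO, ARL14EPL among them, and 0 were lower. That is 3.51% of the members beside 5.63% of all genes for higher, and 0% beside 2% for lower. In A375+VEM 6 of 57 were higher than both, among them ACAP1, ADAP1, ARAP1, ARFIP2 and ARL6IP5, and 3 were lower, ARAP2 and ARL14EPL among them. These are 10.5% and 5.26% of the members, beside 21.4% and 13.8% of all genes. ARL14EPL was thus called in A375R and in A375+VEM, in opposite directions. A375+VEM against A375P alone gave 27 of 59 members past 1.5-fold, 13 higher and 14 lower, or 45.8% beside 62.1% of all genes (36.9% higher, 25.3% lower), with ASAP3 and AGAP2 among the higher and ARF1 and ARF6 among the lower. ARF1 and ARF6 were within 1.5-fold of A375+DMSO on the TPM scale.

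The study's 2 pairs share no library, and 57 members were compared in both. Of these, 4 passed 1.5-fold with opposite signs (7.02%) and 2 with the same sign (3.51%). Among all 1656 genes compared in both, the signs were opposite for 12.1% and equal for 10.1%. ARFRP1, ARL6IP6 and ARL14EPL were higher in A375R against A375P and lower in A375+VEM against A375+DMSO, and ARFGEF2 was the reverse. ACAP1 was higher in both pairs, a result that median scaling or a pseudocount of 1 removed in A375R against A375P.

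**Figure D5:**
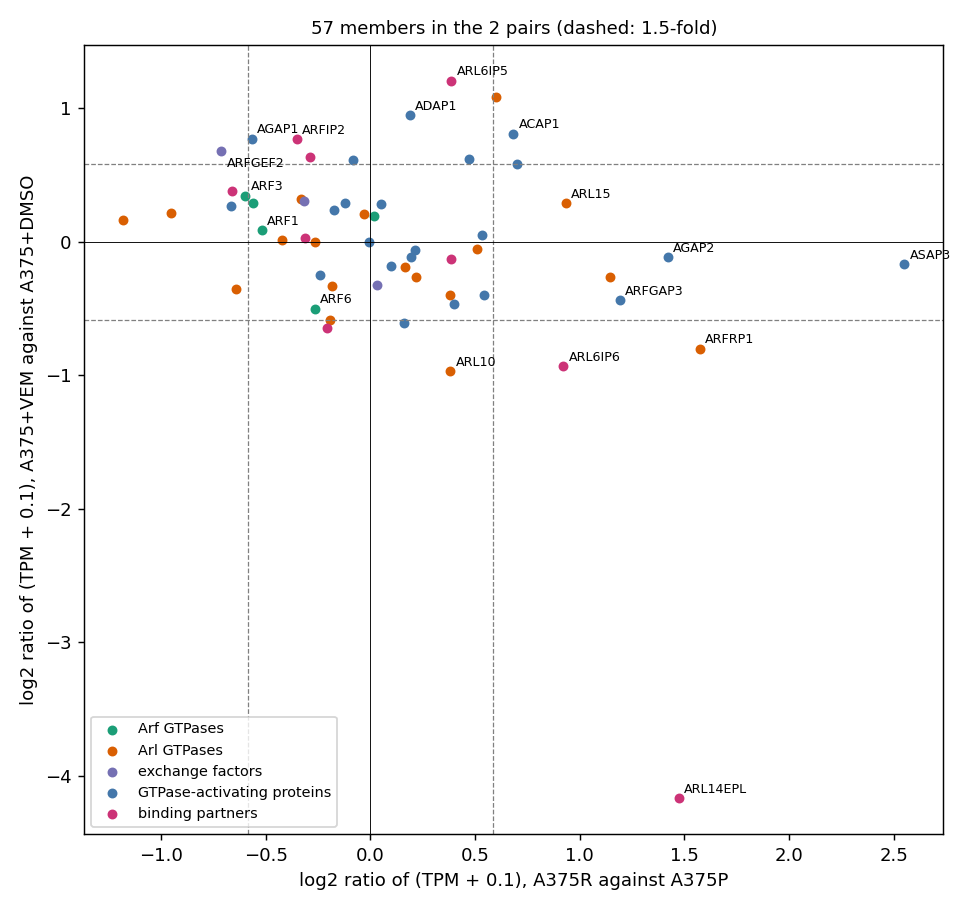
Log2 ratio of (TPM + 0.1) of 57 members in A375R against A375P (x axis) and in A375+VEM against A375+DMSO (y axis), coloured by role, with dashed lines at 1.5-fold. Most points lie between the dashed lines of at least 1 axis, and ARFRP1, ARL6IP6 and ARL14EPL lie at the lower right.

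Complexes that work with Arf or Arl GTPases, or share subunits with one that does, were listed separately from the members, as 20 subunits of the AP-1, AP-3 and AP-4 adaptors and their partners, 7 BBSome subunits with 2 chaperonin-like BBS genes, and 10 subunits of BORC and BLOC-1. Of the adaptor genes, which ARF1 brings to the Golgi and endosomes, 1 was higher and 4 lower in A375R against A375P, and 3 were higher and 4 lower in A375+VEM against A375+DMSO. These are 25% and 35% of the list, beside 44.3% and 46.2% of all genes, and against A375+DMSO 1 was higher and 1 lower in A375R, 10% beside 20.5%. The lower calls included AP1M2, the epithelial AP-1 subunit, at 15.3 in A375P, 7.94 in A375R, 8.83 with DMSO and 3.73 with vemurafenib. AP1G2 had 12.4, 14.04, 16.3 and 47.1 and AP3S1 had 194, 257, 139 and 56.1, so that A375+VEM was the high library for the first and the low library for the second. Median log2 ratios of the list were -0.05 in A375R against A375P and -0.15 in A375+VEM against A375+DMSO.

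BORC is a complex that positions lysosomes and shares subunits with BLOC-1. Of the 10 genes of both complexes, 6 belong to BORC, shared subunits included, and 4 to BLOC-1 alone. In A375R against A375P 0 of the 10 were higher and 2 lower (20% beside 44.3% of all genes), the shared subunit BLOC1S2 at 68.6 in A375P, 27.3 in A375R, 20.8 with DMSO and 23.7 with vemurafenib, and BLOC1S3 of BLOC-1 alone at 27.1, 13.5, 11.0 and 13.3. A375P was above the 3 other libraries for both, as it was for ARF1 and ARF4. In A375+VEM against A375+DMSO 2 were higher (20% beside 46.2%), both of BORC, BORCS6 at 24.3 against 14.05 and BORCS7 at 20.6 against 10.5. No gene of this list passed 1.5-fold in A375R against A375+DMSO (0% beside 20.5% of all genes).

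The BBSome, the coat that ARL6 recruits to cilia, had 2 of 7 subunits higher and 2 lower in A375R against A375P, and 1 higher and 0 lower in A375+VEM against A375+DMSO. Of the chaperonin-like genes, which assist its assembly, BBS10 was lower in the former comparison (log2 -0.80) and BBS12 higher in the latter (0.74). All 9 together had 55.6% and 22.2% called, beside 44.3% and 46.2% of all genes. BBS5 had a TPM of 5.65 in A375P, 0.818 in A375R, 4.99 with DMSO and 3.51 with vemurafenib. BBS1 had 20.8, 11.4, 22.4 and 48.1. Both were called lower in A375R against A375P and against A375+DMSO, while ARL6 itself was within 1.5-fold.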

How the data were processed

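RNA of 4 A375 cultures was sequenced, with 1 library per condition taken from the sample labels. The authors deposited 1 table with read counts, TPM, gene lengths and positions. The deposited counts are whole numbers without normalization, and in the authors' TPM each count is taken per base of the gene and scaled so that libraries have equal totals. The submitters' processing notes name HISAT2, TopHat2, HISAT, Bowtie2 and hg19, without roles. The counting program and strand use are not given in the sources used here. Of 64 members, 0 shared a start or end with RefSeq GRCh38.p14, so positions are those of the table, and only promoters are on GRCh38.p14. The table covered 8.48% to 8.94% of each library's TPM, and 1 incomplete row was left out.

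Ratios were computed on TPM + 0.1 where TPM reached 1, with a threshold of 1.5-fold. Intervals are exact Clopper-Pearson at 95%, and intervals of levels in figures are exact Poisson. No test was possible across conditions. Named were all Arf GTPases, exchange factors, the 3 most abundant per role, the 8 largest rises and falls per comparison with a TPM of at least 5, and members called against both libraries without vemurafenib. ACAP2, AGAP3, AGAP4, AGAP5, AGAP6, AGAP9, AGAP11, ADAP2, AGFG1, AGFG2, ARAP3, ASAP1, ARL1, ARL3, ARL6, ARL14, ARL14EP, and the genes of other lists and the genes of low level were chosen after their values were seen. The BBSome and BORC lists were split by complex after their values were seen. Some members within the rule are counted but not reported here by name. Members and lists were chosen with earlier results of these data known. The steps were tested on simulated data. Alternatives were pseudocounts of 1 and 0.01, no filter, a TPM of at least 5, 2-fold, 2 other scalings, intervals without 1, and the other control. Tools were edgeR 4.0.16 in R 4.3.3 for TMM, and scipy 1.17.1, pandas 2.3.3, numpy 2.4.6 and matplotlib 3.10.9 in Python 3.11.15 for the rest.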

Additional observations from a re-analysis of the deposited data

Results flagged for a closer look

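Of the members, 4 were called in opposite directions in the 2 pairs of libraries, and the difference between pairs was not tested, since each condition has 1 library. The log2 ratio of (TPM + 0.1) of ARFRP1 was 1.57 in A375R against A375P and -0.80 in A375+VEM against A375+DMSO. For ARL6IP6 it was 0.92 and -0.93, and for ARL14EPL, which rests on 2 reads in A375+VEM, it was 1.47 and -4.17. ARFGEF2 went the other way, with -0.71 and 0.68, the latter within 1.5-fold under median scaling (0.57) and TMM (0.53), while the 3 others kept both calls. For ARFRP1, ARL6IP6 and ARFGEF2 the difference in A375R was within 1.5-fold once A375+DMSO was the control, whereas ARL14EPL was higher in A375R against both libraries without vemurafenib.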

How the results depend on the processing

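At a threshold of 2-fold, 9 of 59 members were called for the resistant strain and 9 of 59 for the solvent, both against A375P. These stand beside 22.2% and 26% of all genes. Against A375+DMSO 3 of 57 were called for A375+VEM and 3 of 57 for A375R (beside 26.4% and 8.64%). With the other library without vemurafenib as control the count was 7 of 57 for A375R and 27 of 59 for A375+VEM (beside 20.5% and 62.1%). Without a filter on low values A375R against A375+DMSO had 12 of 64 (beside 28.6%). The other 27 counts under an alternative stayed within 1.5 times the reported ones, and no named member past 1.5-fold changed direction under another pseudocount or scaling. No paired analysis was possible because each condition has 1 library, which also means that no library could be left out. Genes near 25 reads, such as ASAP3 in A375P, have wide intervals, and counting error is the only error measured.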
